A study of Nannospalax ehrenbergi and Mus musculus with 14 samples.

Results

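miR-223 and miR-142 are microRNAs of white blood cells, and their 4 mature forms, miR-223-3p, miR-223-5p, miR-142a-3p and miR-142a-5p, were followed in every library of a study of chemically induced tumors in the blind mole rat *Spalax* and the mouse. They were chosen by name, as 4 of the 1326 microRNA names counted in each species, by a rule that used names and no measured value. The choice was nevertheless made with earlier results of these data known, and the study itself had reported on miR-223 in them. All animals had received the DNA-damaging carcinogen 3-methylcholanthrene (3MCA) once, under the skin of the neck on the left, at 1 mg in *Spalax* and 200 µg in mice. The injected side (IS) held the tumor, and the uninjected side (UIS) was neck muscle of the same animals. No library matched to a sample thus came from an animal without 3MCA. The animals are named by the codes of the samples. *Spalax* Sp600 and Sp976 (both female) bore granulomas, which are benign, taken 14 and 16 months after the injection. *Spalax* Sp2240 (female) and Sp2230 (male) bore fibrosarcomas, which are malignant, taken at 18 and 30 months. Mice M512, M1023 and M1019 (male C57BL/6, 3 to 4 months old) bore fibrosarcomas taken at 11, 12 and 14 weeks. The *Spalax* were caught in the field and were estimated at about 2 to over 10 years old, without an age for each animal. A mouse UIS column whose number matched no sample was used as a further UIS library without a partner and is called the unnumbered library. Its group was read from its column name, so no label gives its 3MCA treatment.

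A microRNA is cut from a hairpin precursor, and either arm of the hairpin, named 5p and 3p, can be loaded into the silencing complex, where its seed bases pair with messenger RNAs and lower their stability and translation. miR-223 is made by cells of the myeloid lineage, above all granulocytes and monocytes, where it restrains the expansion and activation of neutrophils. miR-142 is made by nearly all blood lineages, myeloid and lymphoid, and both of its arms are active. In a solid tissue, reads of these microRNAs are therefore commonly taken as a mark of leukocytes. In bulk tissue, more such cells and more of the microRNA in each cell cannot be told apart.

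The mouse precursors are shown because the 4 members are the opposite arms of only 2 hairpins, so that the arms of a pair come from the same transcript. They were taken from the GENCODE M21 transcripts on GRCm38, and capitals mark the terminal loop that RNAfold predicted, with the 5p arm before it and the 3p arm after it. The mature sequences within them are not shown.
Mir223: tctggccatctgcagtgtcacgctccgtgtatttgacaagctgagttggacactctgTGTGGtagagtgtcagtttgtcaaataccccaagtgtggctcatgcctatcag
Mir142: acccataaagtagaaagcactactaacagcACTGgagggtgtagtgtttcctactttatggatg

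Mir223 (ENSMUSG00000076066.1, 110 bases, plus strand) lies at chrX:96242817-96242926, inside an exon of *F630028O10Rik*, a gene of the antisense type that runs on the same strand. Of its bases, 80 were paired in the predicted fold. Mir142 (ENSMUSG00000105196.1, 64 bases, plus strand) lies at chr11:87756864-87756927, inside the long non-coding gene *Mir142hg* but outside its exons, and 44 of its bases were paired. A second precursor, Mir142b, is annotated on the opposite strand over the same place, at chr11:87756841-87756955 (115 bases). Its sequence is shown because its reads could be confused with those of miR-142a; capitals mark the 64 bases that are the reverse complement of Mir142.
Mir142b: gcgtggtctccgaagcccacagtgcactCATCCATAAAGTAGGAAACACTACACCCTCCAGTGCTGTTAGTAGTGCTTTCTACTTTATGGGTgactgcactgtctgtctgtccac

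miR-142b had 1 read in all libraries together, in the IS of mouse M1019. The *Spalax* reads were counted under the mouse names, and no *Spalax* precursor was used here.

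The libraries held 2034574 to 13982842 reads on microRNAs, with fewer at the IS (2034574 to 9574014) than at the UIS (11446933 to 13982842). The 7 skeletal muscle microRNAs, among them miR-1a-3p and miR-206-3p, made up 27.7% to 37.3% of the reads at the UIS and 0.0096% to 3.94% at the IS, the 2 highest IS shares being those of mice M512 (3.94%) and M1023 (2.57%). Red cell microRNAs, with the identical rows of miR-486a-5p and miR-486b-5p counted once, took 0.267% to 3.32% of the IS reads and 1.46% to 18.0% of the UIS reads, with 18.0% in the UIS of mouse M512. The 7 epithelial microRNAs stayed at or under 0.0243% of the reads, and 1 of 5 tested rose in each *Spalax* comparison and 1 of 4 fell in mice. The part of these shifts in the members' values was not tested, apart from the ratios and scalings given with the results. Values below are normalized counts, that is, reads divided by a size factor per library as deposited. The mouse and *Spalax* tables were scaled separately, so levels are compared only within a species.

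miR-223-3p, the arm of miR-223 that accumulates and silences myeloid targets, was low in every UIS and high in every *Spalax* tumor. In granuloma-bearing *Spalax* its UIS count was 1008 in animal Sp600 and 285 in animal Sp976. The granulomas themselves had 14629 (Sp600) and 8627 (Sp976). In *Spalax* with fibrosarcoma the UIS count was 794 (Sp2240) and 465 (Sp2230), and the tumor count 55348 (Sp2240) and 5597 (Sp2230). The fibrosarcomas of these 2 animals thus bracketed both granulomas, while no *Spalax* UIS reached the lowest tumor. In mice the UIS counts were 404 (M512), 1308 (M1023) and 908 (unnumbered), and the IS counts 1209 (M512), 3669 (M1023) and 4834 (M1019). The lowest mouse tumor, that of M512, was just below the highest mouse UIS, although in the same animal the tumor was 3.00-fold above the UIS. By rank among all microRNAs of a library, miR-223-3p stood between 119 and 180 at the UIS, between 19 and 69 in the *Spalax* tumors and between 67 and 146 in the mouse tumors. At its highest, in the fibrosarcoma of Sp2240, it took 1.25% of the reads.

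miR-223-5p, is the less abundant arm of the same hairpin. Its granuloma-bearing UIS counts were 170 (Sp600) and 55.9 (Sp976), against 1269 and 929 in the granulomas. In *Spalax* fibrosarcoma it went from 88.3 (Sp2240) and 99.9 (Sp2230) at the UIS to 4062 and 625 in the tumor. The sides did not overlap in either *Spalax* group, and animal Sp2240 was again the highest. The share of all microRNAs whose sides did not overlap was not counted, here or for the other members. In mice the UIS counts were 25.0 (M512), 67.3 (M1023) and 109 (unnumbered) and the IS counts 80.0 (M512), 351 (M1023) and 481 (M1019), so the sides overlapped by the tumor of M512. The count of 25.0 rested on 13 reads, a share of 9.3e-05% with an exact 95% binomial interval of 5.0e-05% to 0.000159%, which covers counting error only. It was the lowest value of any member in any library, so all 4 members passed the filter on low values without depending on the tumors.

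miR-142a-5p was the most abundant member in 13 of the 14 libraries and the one whose sides lay closest. Its UIS counts were 4291 (Sp600), 3399 (Sp976), 3352 (Sp2240) and 5909 (Sp2230) in *Spalax*. The tumors of the same animals had 16807, 17572, 39296 and 25440, so that the 2 granulomas were nearly equal and both fibrosarcomas were higher. In mice the UIS counts were 14303 (M512), 6395 (M1023) and 6935 (unnumbered) and the IS counts 9896 (M512), 22674 (M1023) and 47245 (M1019). Mouse M512 was the exception among all 6 animals with both sides: its tumor had 0.692 times the count of its UIS. As a share of all reads, which does not rest on the size factors, miR-142a-5p was 4.84 times its UIS value in the tumor of M512. Shares rose at the IS for most mouse microRNAs, however: with libraries scaled to their totals, the median log2 fold change of all tested was 2.57. The UIS of M512 was also the library with the highest share of red cell microRNAs, and their part in the value was not tested.

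miR-142a-3p, from the other arm, was much scarcer than miR-142a-5p in every library, yet separated the sides more widely. The *Spalax* UIS counts were 227 (Sp600), 58.4 (Sp976), 162 (Sp2240) and 110 (Sp2230), and the tumor counts 1800, 1447, 4830 and 2552 in the same order. The mouse UIS counts were 527 (M512), 343 (M1023) and 280 (unnumbered) and the IS counts 947 (M512), 2193 (M1023) and 2439 (M1019). It was the member whose sides did not overlap in the mouse either. Its spread between the 2 fibrosarcomas of *Spalax* was also narrower than that of miR-223-3p.

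**Figure D1:**
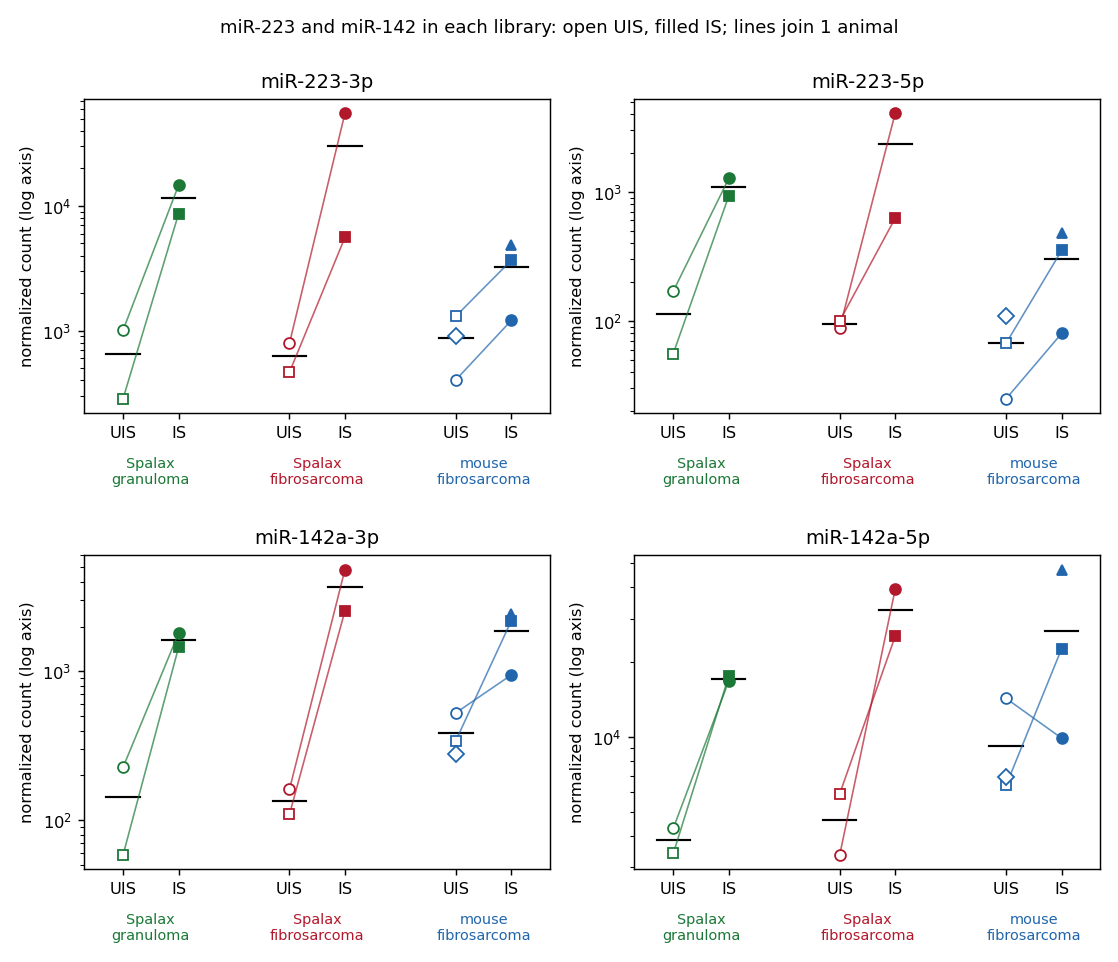
Normalized counts (log axis) of the 4 members in each library at the uninjected (UIS, open) and injected side (IS, filled) of *Spalax* with granuloma, *Spalax* with fibrosarcoma and mice with fibrosarcoma; lines join the sides of 1 animal and black bars are means (n = 2 per *Spalax* side, 3 per mouse side). All 4 members are higher at the IS in every joined pair except miR-142a-5p in mouse M512, which falls from 14303 to 9896.

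Within animals, miR-223-3p, miR-223-5p and miR-142a-3p were higher at the IS in 6 of 6 pairs, and miR-142a-5p in 5 of 6. For miR-223-3p the fold was 69.7 in Sp2240, 30.3 in Sp976, 14.5 in Sp600 and 12.0 in Sp2230, but 3.00 and 2.80 in mice M512 and M1023. The lowest *Spalax* fold was thus 12.0 and the highest mouse fold 3.00, but the tumor of M1019 has no partner and does not enter. For miR-223-5p the lowest *Spalax* fold was 6.26 (Sp2230) and the highest mouse fold 5.22 (M1023). As shares of reads, its folds overlapped, at 20.4 to 146 in *Spalax* and 22.4 and 23.6 in mice. Those of miR-223-3p did not, at 39.2 or more in *Spalax* and 21.0 or less in mice. For miR-142a-3p the fold of the counts was 29.9 in Sp2240, 24.8 in Sp976, 23.3 in Sp2230 and 7.94 in Sp600, against 1.80 in mouse M512 and 6.39 in mouse M1023. Here the lowest *Spalax* fold and the higher mouse fold lay close together. Together the 4 members took 0.0242% to 0.0568% of the UIS reads and 0.316% to 2.35% of the IS reads. The 2 ranges did not overlap, and how many other microRNAs had separate ranges was not counted.

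The comparison of IS with UIS asks how the tumors of a group differ from its uninjected muscle, by group means without pairing of the sides. In mice the IS of M1019 and the unnumbered UIS have no partner. In granuloma, all 4 members rose: by a log2 fold change of 4.39 (standard error 1.07) for miR-223-3p, 3.46 (0.90) for miR-223-5p, 3.79 (0.68) for miR-142a-3p and 2.17 (0.40) for miR-142a-5p. In this comparison 48.3% of the 447 microRNAs tested passed the threshold, 25.5% by rising and 22.8% by falling. By size of the rise, miR-223-3p stood at position 9 of 447, miR-142a-3p at 27, miR-223-5p at 45 and miR-142a-5p at 115. The adjusted p-values, from limma on log2(normalized count + 1) with the Benjamini-Hochberg procedure over all microRNAs tested, were 0.0130, 0.0169, 0.00392 and 0.00458 in the order of the fold changes. With 2 libraries a side, the calls of both miR-223 arms depended on single libraries. Without the IS of Sp600 their adjusted p-values were 0.0537 (3p, log2 fold change 4.01) and 0.0626 (5p, 3.24), and without the UIS of Sp976 they were 0.0919 (3.48) and 0.113 (2.67). Both miR-142a arms kept their calls, although miR-142a-3p moved to 2.83 without the UIS of Sp976 and to 4.76 without the UIS of Sp600.

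In *Spalax* fibrosarcoma, the 4 members rose as well, miR-223-3p by 4.86 (standard error 1.07), miR-142a-3p by 4.71 (0.68), miR-223-5p by 4.07 (0.90) and miR-142a-5p by 2.83 (0.40) on the log2 scale. Of the 447 microRNAs tested, 37.4% passed the threshold, 15.2% by rising and 22.1% by falling. The members' positions by size of the rise were 5, 9, 17 and 43 in the same order. The limma adjusted p-values were 0.0107, 0.00220, 0.0110 and 0.00205. The miR-223 arms again rested on few libraries: without the UIS of Sp2230 the adjusted p was 0.0799 for miR-223-3p and 0.0642 for miR-223-5p, and without the UIS of Sp2240 it was 0.0530 and 0.0775. Leaving out the IS of Sp2240 left both below the threshold, but with log2 fold changes of 3.20 and 2.72, and leaving out the IS of Sp2230 moved them to 6.51 and 5.42.

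In mouse fibrosarcoma, 2 of the 4 members rose, miR-142a-3p by 2.21 (standard error 0.48, adjusted p = 0.00852 by limma) and miR-223-3p by 1.83 (0.66, adjusted p = 0.0487). The log2 fold changes of miR-223-5p, 2.05 (0.83), and miR-142a-5p, 1.35 (0.62), had adjusted p-values of 0.0703 and 0.0965. In this comparison 57.8% of the 547 microRNAs tested passed the threshold, 32.2% by rising and 25.6% by falling, so 2 of 4 is near the share of all microRNAs. The positions by size of the rise were 139 for miR-142a-3p, 149 for miR-223-5p, 162 for miR-223-3p and 195 for miR-142a-5p. With the animal as a replicate block, in which the side difference rests on mice M512 and M1023 because the IS of M1019 and the unnumbered UIS have no partner, none of the 4 passed in limma: the adjusted p was 0.0546 for miR-223-3p, 0.0637 for miR-223-5p, 0.0717 for miR-142a-3p and 0.404 for miR-142a-5p, and the unadjusted p was below 0.05 for 3 of the 4. All 4 passed without the IS of mouse M512, with adjusted p-values of 0.0126, 0.0146, 0.00372 and 0.0198 in that order. Of all 547 microRNAs, 227 passed with the block and 320 without the IS of mouse M512. Leaving out any of the other 5 libraries ended the call of miR-223-3p (log2 fold change 1.35 to 2.20, adjusted p 0.0574 to 0.144 by limma). miR-142a-3p kept its call whichever of the 6 libraries was left out (1.96 to 2.64, adjusted p 0.00372 to 0.0355).

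**Figure D2:**
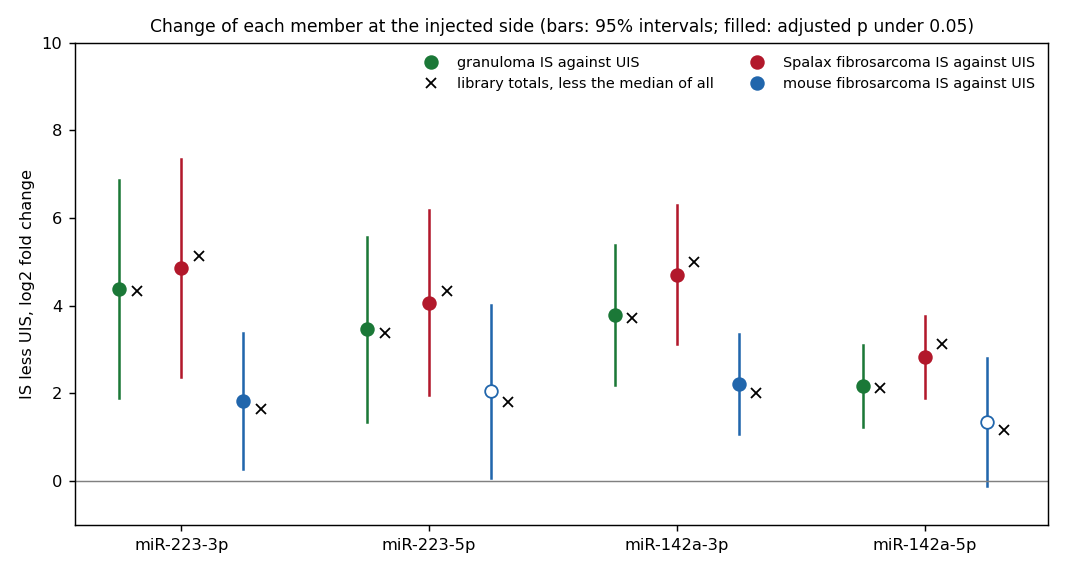
Log2 fold changes (IS less UIS) of the 4 members in the 3 comparisons, with 95% intervals from limma; filled points have an adjusted p under 0.05, and crosses give the change after scaling to library totals less the median change of all microRNAs tested. The *Spalax* points lie between 2.17 and 4.86, the mouse points between 1.35 and 2.21, and the crosses lie within 0.3 of their points. That closeness is built in, because taking off the median removes most of the scaling.

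The size of these changes depended on how the libraries were scaled. Over all microRNAs tested the median change was 0.13 with the deposited scaling and 1.90 with library totals in granuloma, -0.23 and 1.4 in *Spalax* fibrosarcoma, and 0.21 and 2.57 in mice. The calls then split into 253 higher and 49 lower in granuloma (114 and 102 with the deposited scaling), 193 and 41 in *Spalax* fibrosarcoma (68 and 99) and 373 and 31 in mouse fibrosarcoma (176 and 140). Less the median with library totals, the members' changes were 4.33, 3.38, 3.72 and 2.11 in granuloma for miR-223-3p, miR-223-5p, miR-142a-3p and miR-142a-5p, 5.14, 4.35, 4.99 and 3.12 in *Spalax* fibrosarcoma, and 1.63, 1.80, 2.02 and 1.16 in mouse fibrosarcoma. A scaling moves all changes of a comparison by nearly the same amount, so taking off the median removes it again. These values are therefore close to those of the deposited scaling by construction and do not test the scaling. No member changed direction under either scaling in these 3 comparisons. Library totals moved the changes upward and the members were already above 0, so this was no test either.

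The ratio of reads of 2 microRNAs in the same library does not depend on the scaling. Between the arms of miR-142a, the 3p arm gained on the 5p arm in every animal: miR-142a-3p had 0.0174 to 0.0538 reads for each read of miR-142a-5p at the UIS and 0.0516 to 0.123 at the IS. In *Spalax* the ratio went from 0.0530 to 0.107 in Sp600, from 0.0174 to 0.0824 in Sp976, from 0.0483 to 0.123 in Sp2240 and from 0.0186 to 0.10 in Sp2230. In mice it went from 0.0369 to 0.0957 in M512 and from 0.0538 to 0.0967 in M1023, while the unpaired libraries had 0.0404 (UIS) and 0.0516 (IS of M1019). The sides did not overlap in *Spalax* and overlapped by the IS of M1019 in mice. The log2 ratio was higher at the IS by 1.54 ± 0.65 (SD, n = 6 animals), in 6 of 6. The exact two-sided sign-flip permutation test gave p = 0.0312, the smallest that 6 pairs allow, and 0.0469 after adjustment over the 6 ratios tested.

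The arms of miR-223 showed no such uniform shift. miR-223-3p had 4.63 to 8.94 reads for each read of miR-223-5p at the UIS and 8.95 to 13.6 at the IS in *Spalax*, higher at the IS in all 4 animals. In mouse M1023 the ratio was 19.3 at the UIS and 10.4 at the IS, and in mouse M512 it was 15.6 and 15.0. Over the 6 animals the log2 ratio was higher by 0.41 ± 0.74 (SD) at the IS, in 4 of 6, with an exact permutation p of 0.25 (adjusted 0.30). The mouse UIS ratios rest on 13 to 80 reads of miR-223-5p.

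The balance between miR-223 and miR-142a, the myeloid and the pan-leukocyte microRNA, lay far apart in the 2 *Spalax* fibrosarcomas. miR-223-3p had 11.5 reads for each read of miR-142a-3p in the fibrosarcoma of Sp2240 and 2.19 in that of Sp2230, against 8.13 (Sp600) and 5.96 (Sp976) in the granulomas. All 4 *Spalax* UIS libraries lay between 4.22 and 4.90. Those fibrosarcomas thus lay on either side of the UIS range, and both granulomas above it. The 2 *Spalax* with fibrosarcoma also differ in sex and in time after injection, and these cannot be told apart from the animal. In mice the ratio was 0.767 (M512), 3.81 (M1023) and 3.24 (unnumbered) at the UIS and 1.28 (M512), 1.67 (M1023) and 1.98 (M1019) in the tumors. Over the 6 animals the ratio was higher at the IS in 4 and lower in 2, with a mean log2 difference of 0.17 ± 1.00 (SD, exact permutation p = 0.719, adjusted 0.719). The 5p arms differed more evenly within animals: miR-223-5p gained on miR-142a-5p in 6 of 6 animals, by 1.30 ± 0.73 on the log2 scale (exact permutation p = 0.0312, adjusted 0.0469). Across animals the sides overlapped in both species. The unpaired UIS had 0.0158, the highest of the mouse libraries, and the unpaired IS of M1019 had 0.0102. In *Spalax* the IS of Sp2230 (0.0246) lay below the UIS of Sp600 (0.0398).

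miR-451a, a microRNA of maturing red cells, was set beside the members as a measure of blood in the tissue. Its normalized count was lower at the IS in 4 of the 6 animals, at 0.0636 (mouse M512) to 0.217 (mouse M1023) times the UIS, and was 1.19 times the UIS in Sp600 and 1.15 times in Sp2240. miR-223-3p had 0.0032 to 0.115 reads for each read of miR-451a at the UIS and 0.151 to 1.65 at the IS. The log2 ratio was higher at the IS by 5.41 ± 1.49 (SD, n = 6), in 6 of 6 animals, and that of miR-142a-3p to miR-451a by 5.24 ± 1.69, also in 6 of 6. Both had an exact permutation p of 0.0312, adjusted 0.0469. Of the 5 red cell microRNAs, none rose and 2 fell past the limma threshold in each of the 3 comparisons, miR-486a-5p and miR-486b-5p, which carry identical values and are also abundant in muscle. The same 2 fell with library totals, while miR-451a itself turned from -1.07 to 0.77 in granuloma and from -1.29 to 0.39 in *Spalax* fibrosarcoma, past the threshold in neither. Both values lay below the medians of all microRNAs under that scaling, 1.90 and 1.4.

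**Figure D3:**
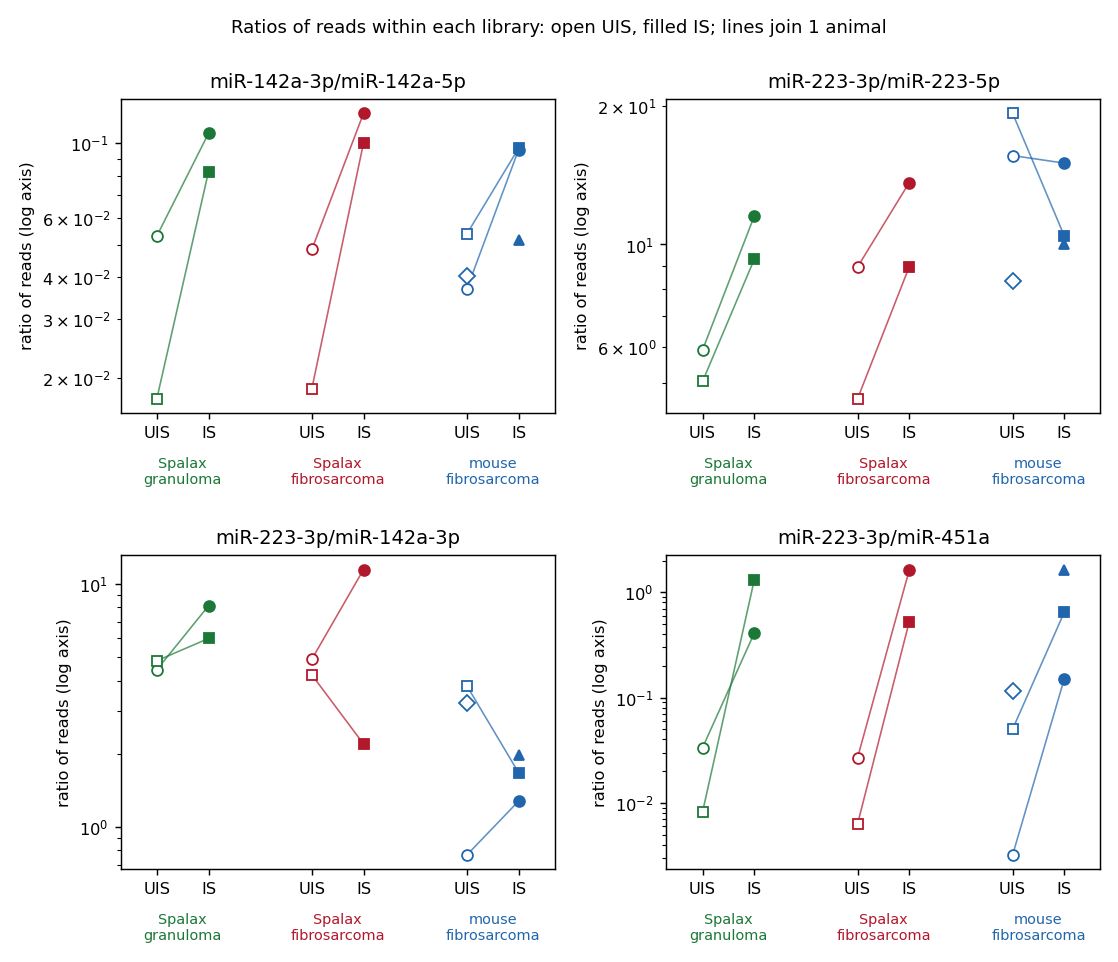
Ratios of reads within each library (log axes) at the UIS (open) and IS (filled), with lines joining the sides of 1 animal. miR-142a-3p against miR-142a-5p and miR-223-3p against miR-451a rise in all 6 joined pairs, while miR-223-3p against miR-142a-3p rises to 11.5 in Sp2240 and falls to 2.19 in Sp2230.

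Whether the malignant and the benign tumors of *Spalax* differed was asked of the changes from the UIS, of the tumors directly and of the UIS, and no member passed the limma threshold in any of the 3. The granuloma change less the fibrosarcoma change was -0.47 for miR-223-3p (95% interval -3.98 to 3.05), -0.61 for miR-223-5p (-3.58 to 2.36), -0.92 for miR-142a-3p (-3.17 to 1.34) and -0.66 for miR-142a-5p (-1.99 to 0.67), with adjusted p-values of 0.593 to 0.893. Of all 447 microRNAs, 3.80% passed. Compared directly, granuloma IS less fibrosarcoma IS was -0.65 for miR-223-3p (-3.13 to 1.84), -0.55 for miR-223-5p (-2.66 to 1.55), -1.12 for miR-142a-3p (-2.72 to 0.47) and -0.88 for miR-142a-5p (-1.82 to 0.06). The adjusted p-values were 0.720, 0.720, 0.331 and 0.206, and 18.8% of all microRNAs passed (15.4% higher and 3.36% lower in granuloma). The intervals are wide and include differences in both directions. The IS and UIS of both groups enter these comparisons, so their values are not independent of the side comparisons above.

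The order of the 2 tumor types also depended on animal Sp2240. Without its fibrosarcoma, the difference between the IS libraries turned to 1.01 for miR-223-3p and 0.80 for miR-223-5p, in favor of granuloma. For miR-142a-3p and miR-142a-5p it stayed negative whichever library was left out, between -1.58 and -0.66 and between -1.19 and -0.57. Both fibrosarcomas had more of either miR-142a arm than both granulomas, by count, whereas for miR-223 1 fibrosarcoma was above and 1 below the granulomas.

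At the UIS, the granuloma-bearing and fibrosarcoma-bearing *Spalax* were close for all 4 members: the log2 differences were -0.18 (95% interval -2.67 to 2.31) for miR-223-3p, 0.06 (-2.05 to 2.16) for miR-223-5p, -0.20 (-1.80 to 1.39) for miR-142a-3p and -0.22 (-1.16 to 0.72) for miR-142a-5p, with adjusted p-values of 1 by limma. No microRNA of the 447 passed here (0%), and 5 had an unadjusted p below 0.05. None passed with edgeR (TMM), with DESeq2 or when only the UIS libraries were fitted either, with 7, 10 and 27 at an unadjusted p below 0.05. The interval was narrowest for miR-142a-5p and widest for miR-223-3p.

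The fibrosarcomas of the 2 species were compared by the change of each from its own UIS, in a fit of the 13 libraries that the *Spalax* table holds. The *Spalax* change exceeded the mouse change by 2.80 for miR-223-3p (95% interval -0.46 to 6.06), 2.57 for miR-142a-3p (0.53 to 4.62), 1.5 for miR-142a-5p (-0.48 to 3.48) and 1.45 for miR-223-5p (-1.63 to 4.52) on the log2 scale. None passed the threshold in limma, with adjusted p-values of 0.193, 0.0656, 0.243 and 0.473, where 26.0% of 607 microRNAs did, 5.77% with the higher and 20.3% with the lower change in *Spalax*. miR-142a-3p passed with DESeq2's Wald test (adjusted p = 0.0394), and miR-223-3p without the fibrosarcoma of Sp2230 (log2 difference 4.45, adjusted p = 0.0443). Without the fibrosarcoma of Sp2240 the differences of the miR-223 arms were 1.14 (3p, adjusted p = 0.554 by limma) and 0.096 (5p, 0.974). Scaled to library totals, the differences were 2.06 for miR-223-3p, 0.77 for miR-223-5p, 1.83 for miR-142a-3p and 0.76 for miR-142a-5p, where the median of all microRNAs was -0.96 (-0.064 with the deposited scaling). The directions stayed the same in all these settings. The mouse tumors were taken weeks and the *Spalax* tumors months after the injection, at another dose, and the mouse tumors of M512 and M1023 kept more muscle microRNA, so species, time, dose and muscle content cannot be told apart.

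A list of 10 other microRNAs known from leukocytes was set beside the members. In granuloma 4 of the 10 rose and 1 fell, in *Spalax* fibrosarcoma 4 rose and none fell, and in mouse fibrosarcoma 4 rose and 2 fell. Of all microRNAs tested, 25.5% rose and 22.8% fell in granuloma, 15.2% and 22.1% in *Spalax* fibrosarcoma and 32.2% and 25.6% in mice, so the mouse counts are near the share of all microRNAs. Scaled to library totals, an alternative added after the data were seen, 9, 9 and 8 of the 10 rose and none fell. Under that scaling most calls were rises: 253 of all 447 microRNAs rose in granuloma, 193 of 447 in *Spalax* fibrosarcoma and 373 of 547 in mice. With the deposited scaling, to which the values below refer, the median log2 fold changes of the list were 1.65, 2.23 and 0.66, beside 0.13, -0.23 and 0.21 over all microRNAs tested, and the members' medians were 3.63, 4.39 and 1.94. Past the threshold in all 3 comparisons were miR-21a-5p and miR-147-3p. miR-21a-5p, which is abundant in activated leukocytes but also in fibroblasts and tumor cells, rose by 3.63 (standard error 0.45), 3.63 (0.45) and 3.04 (0.29). miR-147-3p, which macrophages switch on after Toll-like receptor signals, rested on few UIS reads. It had 0 (Sp600) and 4 (Sp976) reads at the UIS and 13 and 37 in the granulomas, 1 read at each UIS and 75 (Sp2240) and 169 (Sp2230) reads in the *Spalax* fibrosarcomas, and 3 (M512), 9 (M1023) and 18 (unnumbered) reads at the UIS against 579 (M512), 504 (M1023) and 808 (M1019) in the mouse tumors. The limma adjusted p-values were 0.0195, 0.00325 and 0.00137, and no fold is given against counts this low.

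Other members of the list passed in one species and not in the other. miR-146a-5p and miR-146b-5p, induced by NF-κB signaling and limiting it in turn, rose in both *Spalax* comparisons: by 2.66 and 3.57 in granuloma and by 2.93 and 3.11 in fibrosarcoma. In mice their changes were 1.35 (adjusted p = 0.213 by limma) and -0.66 (adjusted p = 0.349), and with library totals 3.73 (0.0101) and 1.72 (0.0439). The median of all mouse microRNAs with library totals was 2.57, above the 1.72 of miR-146b-5p. Tested between the fibrosarcomas of the species, the changes differed for miR-146b-5p (3.56 higher in *Spalax*, adjusted p = 0.0231 by limma), miR-181a-5p (1.44, 0.0290) and miR-181b-5p (1.83, 0.0293), and for none of the other 7. miR-342-3p and miR-342-5p rose in mice, by 1.98 and 1.79, and had 0.88 to 1.59 in *Spalax* with adjusted p-values of 0.0581 to 0.139; with library totals both passed in all 3 comparisons. miR-181a-5p and miR-181b-5p, known from lymphocyte development, fell by 1.54 and 1.69 in mice. Their direction turned with library totals (0.84 and 0.69), but both values lay below the median of all microRNAs, 2.57. miR-150-5p, a microRNA of mature lymphocytes, had a change of -2.05 in granuloma, past the threshold, -1.49 in *Spalax* fibrosarcoma (adjusted p = 0.0579) and -2.17 in mice (adjusted p = 0.0905), opposite in sign to the members. With library totals it was -0.21, 0.19 and 0.21 (adjusted p 0.734 to 0.872 by limma), below the medians of all microRNAs, 1.90, 1.4 and 2.57. Its share of reads was lower at the IS in Sp600, Sp2240, M512 and M1023 and higher in Sp976 and Sp2230. miR-155-5p, a microRNA of activated macrophages and lymphocytes, was past the threshold in none of the 3, but in all 3 with library totals (4.05, 4.56 and 2.35, adjusted p = 0.00957, 0.00755 and 0.00914 by limma). The mouse value of 2.35 lay below the median of all microRNAs under that scaling, 2.57. The counts of miR-155-5p were uneven between animals. In granuloma-bearing *Spalax* it had 932 (Sp600) and 368 (Sp976) at the UIS, and 819 (Sp600) and 9006 (Sp976) at the IS, so it was lower at the IS than at the UIS in Sp600 and higher in Sp976. In *Spalax* fibrosarcoma the UIS had 601 and 516 and the tumors 3923 and 4270, and in mice the sides overlapped.

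**Figure D4:**
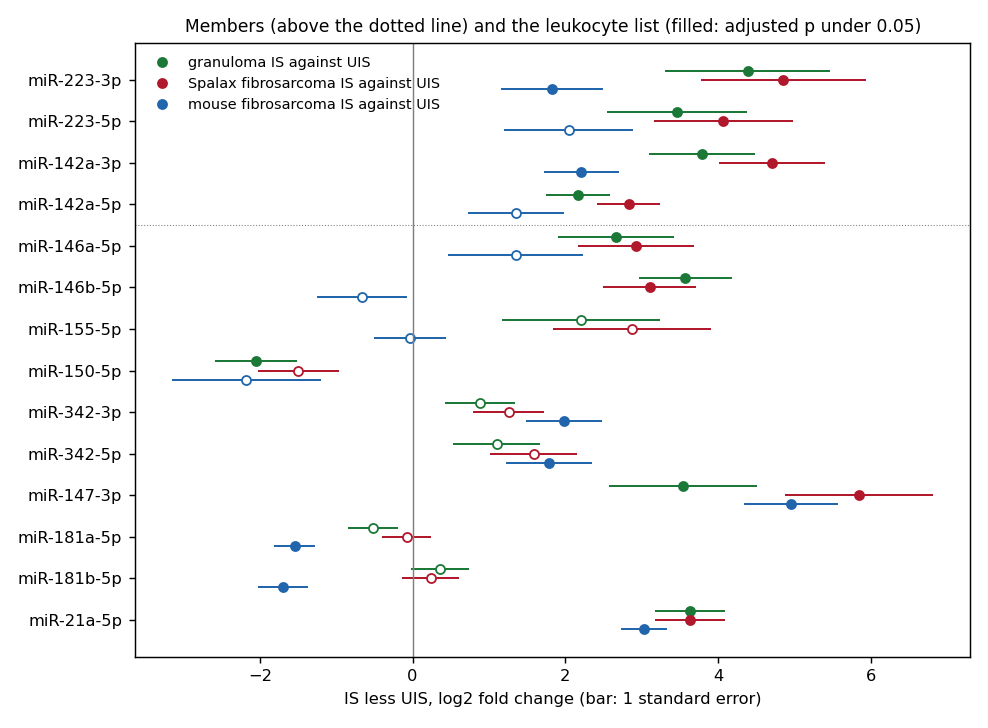
Log2 fold changes (IS less UIS, bars of 1 standard error) of the 4 members, above the dotted line, and of the 10 other leukocyte microRNAs in granuloma, *Spalax* fibrosarcoma and mouse fibrosarcoma; filled points passed the threshold. The value of miR-147-3p depends on the 1 added to its low UIS counts. miR-21a-5p and miR-147-3p are filled in all 3 comparisons, and miR-150-5p lies below 0 in all 3, with the deposited scaling. With library totals miR-150-5p is 0.19 and 0.21 in the *Spalax* and mouse fibrosarcomas, where the medians of all microRNAs are 1.4 and 2.57.

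Markers of other cells moved in different directions. The 5 fibroblast microRNAs (miR-199 and miR-214) rose in granuloma and in mouse fibrosarcoma, 5 of 5 in each, and 0 of 5 passed in *Spalax* fibrosarcoma, where 5 of 5 did with library totals. miR-199a-3p and miR-199b-3p carry identical values, so these are 4 measurements. With that row counted once, they took 0.231% to 1.00% of the UIS reads. In tumors that share was 10.7% (Sp600) and 11.1% (Sp976) for granuloma, 3.04% (Sp2240) and 5.32% (Sp2230) for *Spalax* fibrosarcoma, and between 4.27% and 8.82% for mice. Among the *Spalax* tumors, the members were highest by count in the fibrosarcoma of Sp2240, which had the lowest fibroblast share. The fibrosarcoma of Sp2230, with the next lowest share, had the lowest miR-223-3p (5597) and miR-223-5p (625) of these tumors. Its miR-142a arms were above those of both granulomas, so the members showed no common order by fibroblast share. The 2 lymphocyte microRNAs, miR-150-5p and miR-342-3p, also stand in the list of 10 above. The 2 endothelial microRNAs fell in all 3 comparisons, and the skeletal muscle microRNAs fell 7 of 7 in both *Spalax* comparisons and 3 of 7 in mice. Of the 4 smooth muscle microRNAs, 2 fell in each *Spalax* comparison and 4 in mice. With library totals no endothelial or smooth muscle microRNA passed, and the median of the smooth muscle list turned to 0.66, 0.085 and 0.092. These medians lay below those of all microRNAs tested, 1.90, 1.4 and 2.57. The part of these cell types in the members' changes was not tested.

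The microRNAs whose levels ran most like those of the members were looked for among the 402 tested in both species, by the smaller of the Pearson correlations over the 8 *Spalax* and the 6 mouse libraries. The libraries of a side share their tissue, so any microRNA that differs between the sides correlates, and the values are a description. Outside the members, the 3 most like miR-223-3p were miR-21a-3p (r = 0.94 in *Spalax* and 0.83 in mice), miR-21a-5p (0.93 and 0.80) and miR-224-5p (0.80 and 0.93). The 3 most like miR-142a-3p were miR-148b-3p (0.94 and 0.92), miR-222-5p (0.93 and 0.89) and miR-21a-5p (0.97 and 0.89). Between the members, the arms of miR-223 had r = 0.99 and 0.96, those of miR-142a 0.96 and 0.90, and miR-223-3p with miR-142a-3p 0.97 and 0.79. The arms of a hairpin thus ran closer together than the 3p arms of the 2 hairpins in mice, and about as close in *Spalax*.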

How the data were processed

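Small RNA of 8 *Spalax* and 6 mouse libraries was analysed. The authors trimmed adaptors, mapped reads with mirDeep and used DESeq2; the build and settings of this mapping are not given in the sources used here. The submitters' processing notes also name GRCm38, TopHat 1.4.1, HTSeq and DESeq, without a role. The authors deposited a normalized signal per microRNA and library: reads divided by a median-of-ratios size factor. All values (100%) were whole multiples of the library's step within 0.001, which gave the reads. The size factors of the *Spalax* table, which holds 13 libraries, match those computed over all 14, and those of the mouse table its 6. Every column was assigned to a group, the unnumbered mouse UIS column by its name only.

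The main test was limma (lmFit, eBayes with trend) on log2(value + 1) with a Benjamini-Hochberg threshold of 0.05, for microRNAs that reached 10 in 2 or more *Spalax* (3 or more mouse) libraries. The 8 *Spalax* libraries shared a fit of 4 groups, so the spread of all groups enters each p-value. Ratios used log2((reads + 0.5)/(reads + 0.5)) and exact sign-flip tests over animals. Intervals (95%) are limma's for log2 differences and exact binomial for shares of reads. Reads carry no molecular identifiers.

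Same-numbered sides come from the same animal. Their deviations from the group means correlated by 0.093 in granuloma, 0.0041 in *Spalax* fibrosarcoma and -0.107 and 0.122 in mice M1023 and M512. The members, lists and tests were chosen with earlier results of these data known. The text names the 4 members, the leukocyte list and, for miR-223-3p and miR-142a-3p, the 3 most similar microRNAs. Alternatives were edgeR with TMM or DESeq2 size factors, DESeq2, other scalings, filters and pseudocounts, no trend, only the libraries compared, the replicate block and leaving out each library. The tests were tried on simulated reads. Replicates of a group differed by far more than sampling noise. Hairpins were folded with RNAfold 2.7.2. The other software was Python 3.11.15, limma 3.58.1 under R 4.3.3, DESeq2 1.42.0 and edgeR 4.0.16.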

Additional observations from a re-analysis of the deposited data

How the results depend on the processing

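In granuloma and *Spalax* fibrosarcoma all 4 members passed under every alternative that kept all libraries of the comparison; leaving out a library gave 2 to 4 in each. Of all microRNAs, the alternatives with all libraries called 201 to 302 in granuloma and 145 to 234 in *Spalax* fibrosarcoma. In mouse fibrosarcoma, against 2, DESeq2's Wald test and scaling to library totals each called 4, and size factors without muscle microRNAs, no filter, a pseudocount of 0.1 and no trend in the spread each called 1. DESeq2's Wald test called 358 and library totals 404 of all 547 microRNAs, against 316, so 4 calls came with settings that called most microRNAs. The replicate block called 0 members (227 of all 547), and leaving out a library gave 1 to 4 (213 to 320 of all 547). The blocked fit changed no other member's call. For the larger change in *Spalax* than in mouse fibrosarcoma, against 0, DESeq2 called 1 and leaving out a library gave 0 to 1.

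Directions that turned belonged to differences that never passed. Leaving out a library, the granuloma change less the fibrosarcoma change ran from -2.12 to 1.19 for miR-223-3p, -1.96 to 0.74 for miR-223-5p and -1.89 to 0.052 for miR-142a-3p, and the IS difference from -2.30 to 1.01 and -1.90 to 0.80 for the miR-223 arms. Without the UIS of Sp600 the first 3 were 0.44, 0.18 and 0.052. The UIS difference ran from -1.09 to 0.73 (miR-223-3p), -0.74 to 0.85 (miR-223-5p), -1.17 to 0.76 (miR-142a-3p) and -0.63 to 0.19 (miR-142a-5p). With edgeR and DESeq2 size factors, and with DESeq2, it was 0.026 for miR-223-3p and 0.061 for miR-142a-3p, and scaled to totals -0.12 for miR-223-5p. The causes were not tested.

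Over all microRNAs, the 17 whose granuloma and fibrosarcoma changes differed became 58 with DESeq2, 5 with the replicate block, and 0 without the filter or with a pseudocount of 0.1 (107 and 89 at an unadjusted p under 0.05), and 0 to 39 without a library. The 84 of the IS comparison became 4 when only its libraries were fitted, and the 158 of the species comparison 67 with edgeR (TMM). The tests of the ratios kept their direction and side of the threshold where 6 pairs were used; with fewer, no p under 0.05 is possible.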
